A study of Mus musculus with 16 samples.

Results

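The genes described here carry symbols that begin with Zc3h, Zmat or Zcchc followed by a digit, the nomenclature groups for RNA-type zinc finger proteins. They were taken from the platform annotation of the Affymetrix mouse genome 430 2.0 array by symbol alone, whatever their values, using probe sets that name 1 gene. The rule found 32 genes, 14 of them Zc3h, 5 Zmat and 13 Zcchc, on 58 probe sets, out of 18193 genes named on the array. Each gene was represented by its brightest probe set over all arrays. After removal of genes at or below the 30th percentile of mean signal, 28 of the 32 were tested, among 13915 genes in all. The 4 that were too dim were Zc3h12a, Zc3h12d, Zc3h3 and Zcchc13. A further 4 probe sets name both Zc3h11a and Zbed6, which cannot be separated on them, and were left out.

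The study measured total RNA from cortical neurons of embryonic day 16.5 C57BL/6 mice on 16 arrays. On day 5 in vitro the cultures received for 6 h, with polybrene, a lentivirus expressing an shRNA against c-Fos or, as control, one against firefly luciferase. On day 7 the neurons were silenced and depolarised with KCl for 0, 1, 3 or 6 h, which gave 8 groups: control shRNA and c-Fos shRNA, each at 0, 1, 3 and 6 h. Each group held 2 arrays, called biological replicates 1 and 2 in the labels. All 16 cultures were silenced and all received a lentivirus, so no untreated neurons serve as a baseline. The labels name a single lentivirus for each arm, so lower c-Fos and any other effect of that virus cannot be told apart. They do not say whether the 2 arrays of a group came from separate dissections, and p-values therefore measure the spread between these arrays.

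Zc3h proteins carry CCCH zinc fingers and Zcchc proteins carry CCHC zinc knuckles, both small zinc-binding folds that contact single-stranded RNA. Zmat proteins carry matrin-type fingers, found in proteins that bind double-stranded RNA or sit in the spliceosome. Family members cleave messenger RNA, feed nuclear transcripts to the RNA exosome, end unproductive transcription, help place RNA methyl marks or belong to splicing particles. In neurons, depolarisation with KCl opens voltage-gated calcium channels and switches on early-response genes, among them Fos, whose protein pairs with Jun to form AP-1.

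Fos itself followed the labels. Its intensity was 260.6 and 231.6 on the 2 control shRNA arrays at 0 h and 14633.5 and 14719.1 at 1 h, against 118.2 and 151.6, and 7727.6 and 9622.7, with c-Fos shRNA. The c-Fos minus control difference in log2 intensity was -0.77, -0.75, -1.74 and -1.85 at the 4 times in order (SE 0.1 each). The 8 pan-neuronal markers lay between the 86th and the 99.4th percentile of all genes. Markers of other cells were also present, over a wider range. Those of astrocytes ran from the 37.2nd (Gfap) to the 96th percentile (Aldoc). Those of the oligodendrocyte lineage ran from the 48.1st (Cspg4) to the 96.6th (Olig1). Dividing-cell markers lay between the 67.9th and the 75.6th, whereas 5 of 6 microglial markers were too dim to test. At each time the summed intensity of the astrocyte, oligodendrocyte-lineage, vascular and dividing-cell lists overlapped between the arms. That of the 5 excitatory markers was lower with c-Fos shRNA and did not overlap at 0 h (17490 to 18080 with control, 14040 to 14330 with c-Fos shRNA), 1 h (18610 to 18720 and 14950 to 15700) or 6 h (18660 to 19090 and 17030 to 18220). That of the 5 inhibitory markers overlapped at no time, being lower with c-Fos shRNA at 0 h (11680 to 11710 and 10430 to 11010) and 1 h and higher at 3 h and 6 h (13470 to 14650 and 14860 to 14930). The sum of the 8 pan-neuronal markers was lower with c-Fos shRNA, without overlap, at 3 h and 6 h (63830 to 66770 and 63050 to 63510). The dim microglial sums, from 246.5 to 321 over all arrays, did not overlap at 1 h and 3 h. Each sum weighs its brightest markers most, such as Neurod6 (median intensity 8109) among the excitatory ones. Taken singly and averaged over times, 2 of the 5 excitatory markers were higher and 2 lower with c-Fos shRNA, as given below. In bulk cultures, fewer cells of a type and less RNA of its marker genes per cell cannot be told apart.

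The first question was how these genes responded to KCl. The response was small at 1 h and broad at 3 and 6 h, when more genes were lower than higher in both arms. The same pattern was seen over all genes tested. Changes are differences in quantile-normalised log2(intensity + 16), which understate the change of dim genes, and a call means an adjusted p under 0.05 (Benjamini-Hochberg) in limma. With control shRNA at 1 h, 2 of the 28 genes were higher and 0 lower, against 2.3% and 0.819% of all 13915 genes. With the replicate number as a block, limma called 2 higher and 1 lower, where 4.51% and 3.61% of all genes were called. Without it, 4 genes in either direction reached an unadjusted p under 0.05. The 2 calls fell to 1 when any of the 4 arrays compared was left out. At 3 h, 3 genes were higher and 10 lower, where the background was 11% and 19.3%. At 6 h the counts were 4 higher and 10 lower, with 16.7% and 27.4% of all genes called. Of these genes, 10.7% and 14.3% were thus called higher at 3 and 6 h and 35.7% lower at both times. With the replicate number as a block, 6 were higher and 11 lower at 3 h (21.4% and 39.3%, against 15.8% and 28.5% of all genes), and 7 and 11 at 6 h (25% and 39.3%, against 21.7% and 35.2%). In this arm, where these shares stood relative to the background therefore differed between the models. Higher calls were near or below it without the block and above it with it. Lower calls at 6 h were nearer to it with the block. With 28 genes these gaps amount to few genes, and the c-Fos shRNA arm below did not repeat this pattern of higher calls.

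With c-Fos shRNA, 1 gene was higher and 1 lower at 1 h, against backgrounds of 1.96% and 1.42%. These became 3 higher and 2 lower when the replicate number was a block, where 4.09% and 4.24% of all genes were called. At 3 h the counts were 4 higher and 9 lower (14.3% and 32.1%, against 9.9% and 18.3% of all genes). At 6 h they were 5 higher and 9 lower (17.9% and 32.1%, against 16.1% and 24.9%). With the block these were 5 and 13 at 3 h (17.9% and 46.4%, against 14.5% and 28.4% of all genes). At 6 h they were 6 and 10 (21.4% and 35.7%, against 21.6% and 33.3%). The total of 14 at 6 h was 9 without replicate 1 of the c-Fos shRNA 0 h group. The KCl contrasts of an arm share its 0 h arrays, whereas the 2 arms share no array. Called in both arms at 3 h were 3 higher genes, Zc3h12c, Zcchc2 and Zcchc9, and 8 lower genes, Zc3h4, Zc3h6, Zc3h8, Zcchc4, Zcchc7, Zcchc8, Zcchc14 and Zmat1. At 6 h the 4 higher in both were Zc3h12c, Zcchc2, Zcchc9 and Zmat3, and the 9 lower in both were Zc3h4, Zc3h6, Zc3h8, Zcchc4, Zcchc7, Zcchc14, Zcchc17, Zmat1 and Zmat5. Of all genes, 7.78% were called higher and 14.4% lower in both arms at 3 h, and 12.2% and 20.6% at 6 h. None of the 28 was called in opposite directions in the 2 arms, which was also rare among all genes (0.0791% at 3 h and 0.151% at 6 h). Calls of at least 2-fold numbered 5 at 3 h and 7 at 6 h in each arm. Such calls made up 6.07% and 10.1% of all genes with control shRNA, and 5.27% and 7.68% with c-Fos shRNA.

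**Figure D1:**
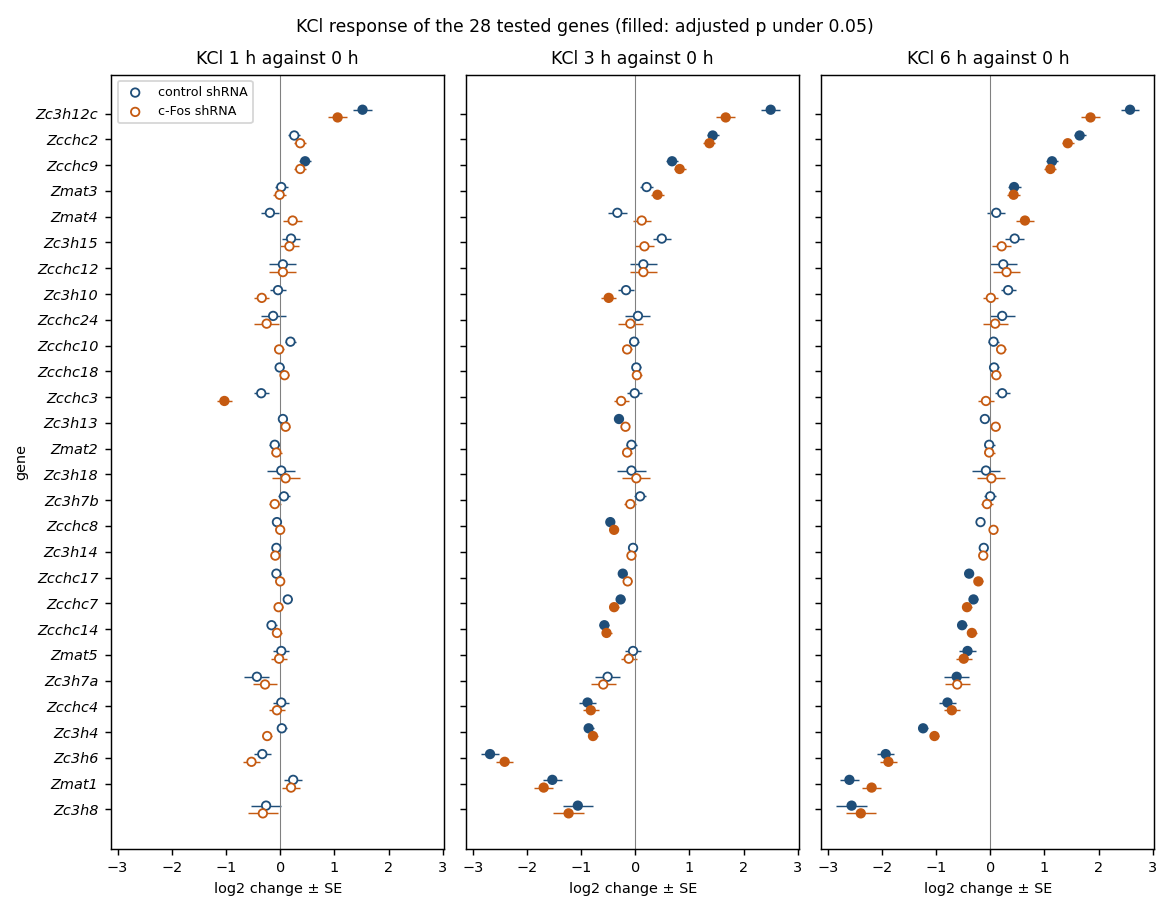
KCl response of the 28 tested genes. Each panel plots the log2 change ± SE against 0 h (horizontal axis) for 1 gene per row, with blue circles for control shRNA and orange circles for c-Fos shRNA, filled where the adjusted p is under 0.05. Zc3h12c is farthest to the right in each panel (2.58 and 1.85 at 6 h), while Zc3h6, Zmat1 and Zc3h8 are farthest to the left at 3 and 6 h.

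Over both arms, 19 of the 28 genes (67.9%) were called in at least 1 of the 6 KCl contrasts, as were 56.7% of all genes. The 9 that were not called were Zc3h14, Zc3h15, Zc3h18, Zc3h7b, Zcchc10, Zcchc12, Zcchc18, Zcchc24 and Zmat2. The median change of the 28 genes at 3 h was -0.07 with control and -0.14 with c-Fos shRNA, and that of all genes -0.05 and -0.06. In absolute size, their median change at 3 h was 0.29 and 0.32, compared with 0.21 and 0.2 for all genes. At 6 h it was 0.36 and 0.32, against 0.3 and 0.28. Within the families, the 11 tested Zc3h genes held 1 higher and 4 lower call at 6 h with control shRNA, the 5 Zmat genes 1 and 2, and the 12 Zcchc genes 2 and 4.

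Among genes acting on nuclear transcripts, Zc3h4, Zc3h6 and Zc3h8 lost signal with KCl. Zc3h4 pairs with Wdr82 in the restrictor complex, which ends transcription outside productive genes, and Zc3h6 is its close relative. Zc3h8 belongs to the little elongation complex, which drives transcription of small nuclear RNA genes. The RefSeq gene table lists Zc3h8 and Zc3h6 as adjacent protein-coding genes, and their promoter windows lie on opposite strands of chromosome 2, pointing away from each other. The windows of this neighbouring pair, with 250 bases before and 50 after the start from RefSeq on GRCm38.p6, are shown because both genes fell. They span chr2:128967152-128967451 (plus strand) for Zc3h6 and chr2:128943971-128944270 (minus strand) for Zc3h8, read 5′ to 3′. Capitals mark TGACG or its reverse complement CGTCA, the core of the cAMP-response element.
Zc3h6: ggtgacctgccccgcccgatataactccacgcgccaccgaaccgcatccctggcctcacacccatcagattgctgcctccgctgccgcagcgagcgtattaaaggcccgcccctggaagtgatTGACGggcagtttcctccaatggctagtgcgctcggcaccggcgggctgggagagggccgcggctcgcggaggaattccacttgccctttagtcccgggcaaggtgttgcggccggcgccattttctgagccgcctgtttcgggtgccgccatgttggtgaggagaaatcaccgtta
Zc3h8: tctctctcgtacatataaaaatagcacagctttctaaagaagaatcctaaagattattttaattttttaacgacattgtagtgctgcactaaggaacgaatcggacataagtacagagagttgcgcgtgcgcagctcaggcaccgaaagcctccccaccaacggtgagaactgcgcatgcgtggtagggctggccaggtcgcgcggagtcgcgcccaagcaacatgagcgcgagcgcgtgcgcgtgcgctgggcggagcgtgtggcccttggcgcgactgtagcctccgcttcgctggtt

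Zc3h6 had intensities of 548.3 and 450.6 before KCl with control shRNA, 406.3 and 402.0 after 1 h, 64.6 and 61.6 after 3 h, and 115.9 and 116.5 after 6 h. The c-Fos shRNA arrays read 343.3 and 340.4, 216.5 and 247.1, 39.4 and 63.9, and 70.6 and 89.3 at the same times. Every 3 h and 6 h array was below every 0 h and 1 h array of both arms, and the 2 arrays at 3 h were the lowest of each arm. The log2 change at 3 h was -2.68 with control shRNA (SE 0.16, adjusted p = 1.27e-07) and -2.41 with c-Fos shRNA (SE 0.16, adjusted p = 4.19e-07). At 6 h the changes were -1.93 and -1.88. The 1 h changes, -0.33 and -0.53, were not called, although the second was with the replicate number as a block (adjusted p = 0.0327).

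Zc3h8 was lowest at 6 h. Its intensity with control shRNA was 518.3 and 620.2 before KCl, 463.5 and 511.6 after 1 h, 240.6 and 268.6 after 3 h, and 56.2 and 116.4 after 6 h. With c-Fos shRNA it was 597.6 and 706.5, 439.0 and 637.2, 215.8 and 314.7, and 82.1 and 143.8. The 6 h arrays were the lowest of each arm, below those at 3 h. The log2 change was -1.06 at 3 h and -2.56 at 6 h with control shRNA (SE 0.28, adjusted p = 0.0107 and 1.1e-05). It was -1.23 and -2.39 with c-Fos shRNA (SE 0.28, adjusted p = 0.00496 and 2.4e-05). The 3 h calls depended on single arrays. With control shRNA the change was -0.95 (adjusted p = 0.0748) without replicate 2 at 0 h and -1 (adjusted p = 0.0669) without replicate 1 at 3 h, and with c-Fos shRNA it was -0.98 (adjusted p = 0.0606) without replicate 1 at 3 h.

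Zc3h4 was 2150.8 and 1854.8 before KCl, 2118.9 and 2112.4 after 1 h, 1111.0 and 1083.4 after 3 h, and 769.1 and 863.2 after 6 h with control shRNA. The c-Fos shRNA values were 1923.6 and 2179.0, 1849.8 and 1705.6, 1135.1 and 1219.7, and 1008.0 and 967.1. The 3 h and 6 h arrays did not overlap those at 0 h in either arm. The change was -0.86 at 3 h and -1.24 at 6 h with control shRNA (SE 0.091, adjusted p = 1.71e-05 and 5.61e-07), and -0.78 and -1.03 with c-Fos shRNA. A second, dimmer probe set, with changes of -0.31 and -0.51 at 6 h, was not called when every probe set was tested by itself.

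Adaptors that bring RNA to the nuclear exosome had smaller changes. Zcchc8, the scaffold of the nuclear exosome targeting complex, fell at 3 h by 0.46 on the log2 scale with control shRNA and by 0.39 with c-Fos shRNA (SE 0.073, adjusted p = 0.000357 and 0.00133). At 6 h it was not called in either arm, at -0.18 and 0.06, although the first was with the replicate number as a block (adjusted p = 0.0244). Zcchc7, of the TRAMP polyadenylation complex, fell in both arms at 3 h (-0.27 and -0.39) and at 6 h (-0.31 and -0.43). A second Zcchc7 probe set showed a larger change of -0.94 and -0.88 at 3 h, called in both arms, and the third, at -0.91 and -0.69, was not called. Zc3h18, which links the cap-binding complex to the exosome, was not called, with changes from -0.08 to 0.1 over the 6 KCl contrasts. Its replicate 1 array read higher than its replicate 2 array in all 8 groups, for example 881.5 and 693.5 at 0 h with control shRNA. Zc3h3, at a median intensity of 1 with a highest value of 14.8, was too dim to test.

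Zc3h13, which anchors the m6A RNA methylation complex in the nucleus, fell by 0.3 at 3 h with control shRNA (SE 0.073, adjusted p = 0.00732). Its change with c-Fos shRNA was -0.18, called only with the replicate number as a block (adjusted p = 0.045). Zc3h14, a nuclear poly(A)-binding protein, depended on the probe set. The representative probe set gave -0.12 at 6 h with control shRNA and -0.13 with c-Fos shRNA, neither called. The other read 2405.9 and 1881.1 at 0 h and 3408.1 and 3190.8 at 6 h with control shRNA, and 2072.2 and 2183.1 and 3377.2 and 2939.2 with c-Fos shRNA. Tested by itself among 31526 probe sets, it rose by 0.6 (SE 0.15, adjusted p = 0.00864) and 0.55 (SE 0.15, adjusted p = 0.0148). Zc3h10 fell at 3 h with c-Fos shRNA (-0.49, SE 0.14, adjusted p = 0.0197) and was -0.17 with control shRNA, not called.

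Of the genes that act on cytoplasmic RNA, Zc3h12c had the largest rise. It encodes regnase-3, an endoribonuclease of the family of Zc3h12a (regnase-1), which cuts stem-loops in messenger RNA. Its intensity with control shRNA was 183.2 and 197.3 before KCl, 652.2 and 543.9 after 1 h, 1264.6 and 983.4 after 3 h, and 1328.8 and 1016.4 after 6 h. With c-Fos shRNA it was 143.6 and 163.6, 354.1 and 341.5, 550.1 and 475.4, and 619.8 and 534.8. Both arms rose at every time, and at each time both c-Fos shRNA arrays lay below both control shRNA arrays. The change was 1.52, 2.5 and 2.58 at 1, 3 and 6 h with control shRNA (SE 0.17, adjusted p = 0.000126, 3.69e-07 and 1.94e-07). With c-Fos shRNA it was 1.06, 1.67 and 1.85 (SE 0.17, adjusted p = 0.00271, 1.13e-05 and 3.46e-06).

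The second Zc3h12c probe set moved the same way, from 53.8 and 56.4 at 0 h to 419.0 and 269.7 at 6 h with control shRNA, and from 58.8 and 64.9 to 188.6 and 158.0 with c-Fos shRNA. Its change at 6 h was 2.37 and 1.31 (SE 0.27, adjusted p = 3.38e-05 and 0.00296). Of the other members of its group, Zc3h12a had median intensities of 33.05 and 16.7 on its 2 probe sets, with highest values of 48.6 and 41.4. Zc3h12d had a median of 15.7 and a highest value of 23.7, and neither gene was tested.

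Zc3h7a, described as binding microRNA precursor hairpins, fell at 6 h with control shRNA (-0.62, SE 0.23, adjusted p = 0.0447). It was -0.61 with c-Fos shRNA (adjusted p = 0.0517), a call made with the replicate number as a block (adjusted p = 0.00168). Its paralog Zc3h7b stayed between -0.1 and 0.09 over the 6 KCl contrasts and was not called. Zcchc14, a partner of the Tent4 nucleotidyl transferases, fell at 3 h by 0.57 and 0.53 and at 6 h by 0.52 and 0.34 in the control and c-Fos shRNA arms. Of its 3 other probe sets, 1 was called with control shRNA (-0.56 at 3 h and -0.44 at 6 h) and none with c-Fos shRNA.

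**Figure D2:**
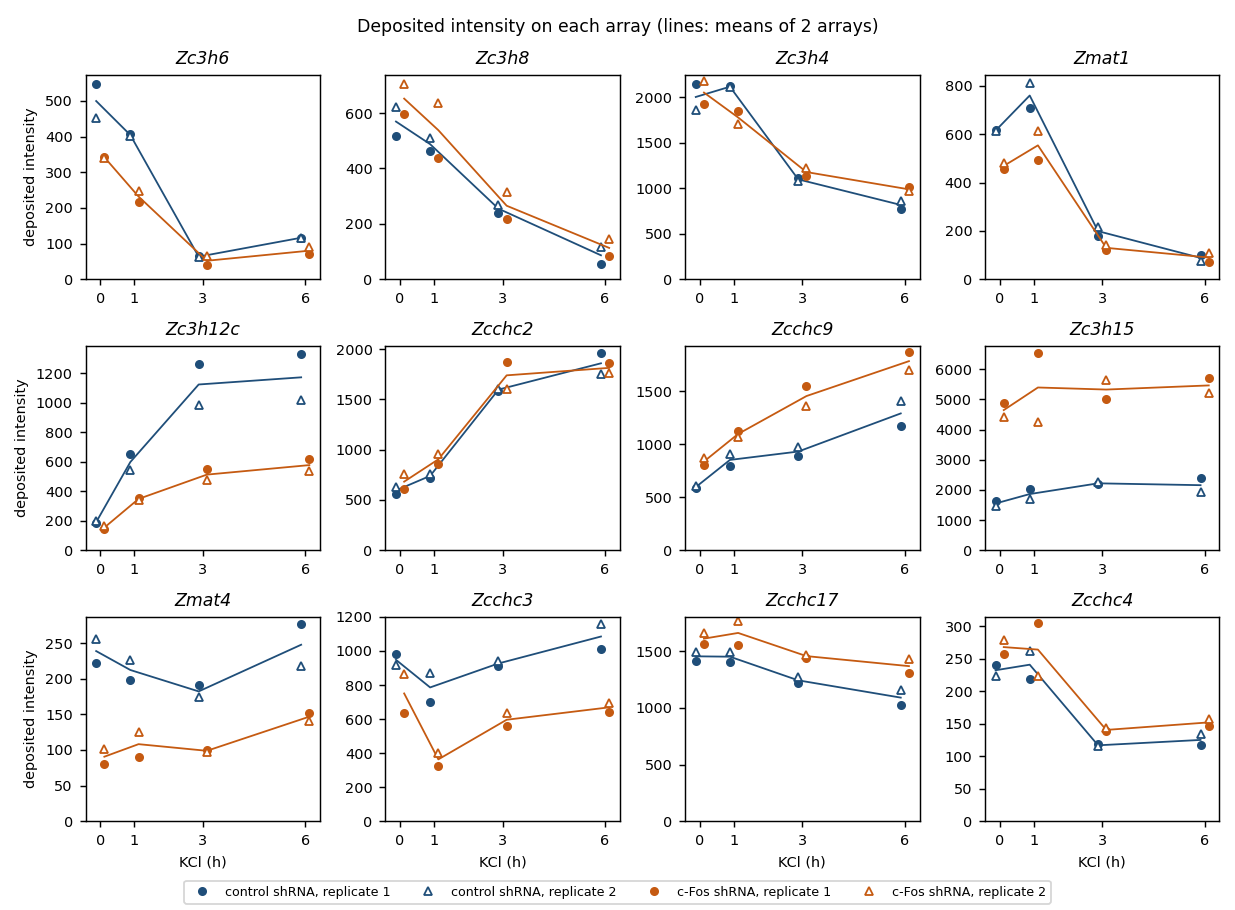
Deposited intensity of 12 genes on each array against hours of KCl. Blue is control shRNA and orange c-Fos shRNA, circles are replicate 1 and triangles replicate 2, lines join the means of 2 arrays, and each panel has its own axis from 0. The Zc3h12c lines separate after 0 h, the Zc3h15 arms are apart at every time (1470.9 to 2390.1 against 4260.2 to 6535.5), and Zc3h6, Zc3h8, Zc3h4 and Zmat1 end far below their starting values in both arms.

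Of the 5 Zmat genes, Zmat1 had the largest change. With control shRNA it read 615.5 and 614.0 before KCl, 710.2 and 810.0 after 1 h, 180.3 and 217.3 after 3 h, and 101.8 and 74.4 after 6 h. With c-Fos shRNA it read 455.3 and 482.5, 495.1 and 612.6, 119.2 and 140.2, and 71.9 and 107.4. All 3 h and 6 h arrays lay below all 0 h and 1 h arrays. The change was -1.53 at 3 h and -2.6 at 6 h with control shRNA (SE 0.17, adjusted p = 2.16e-05 and 1.99e-07), and -1.69 and -2.19 with c-Fos shRNA (SE 0.17, adjusted p = 1.14e-05 and 1.02e-06). The 1 h changes of 0.24 and 0.2 were not called.

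Zmat3, a p53-induced RNA-binding protein that regulates splicing, rose at 6 h in both arms. Its intensity went from 1890.3 and 1985.7 to 2450.3 and 2889.7 with control shRNA and from 1461.3 and 1747.4 to 2120.5 and 2154.8 with c-Fos shRNA. These were changes of 0.44 and 0.43 (SE 0.12, adjusted p = 0.01 and 0.0126). At 3 h it was called with c-Fos shRNA (0.41), and the 0.21 with control shRNA was called only with the replicate number as a block (adjusted p = 0.0496). Zmat5, of the U11/U12 particle of the minor spliceosome, fell at 6 h by 0.42 and 0.49 (SE 0.15, adjusted p = 0.042 and 0.0218). Zmat2, of the spliceosomal tri-snRNP, was not called on its representative probe set (-0.02 at 6 h in each arm). A dimmer Zmat2 probe set rose at 6 h by 0.39 and 0.59 (SE 0.12, adjusted p = 0.029 and 0.00313). Zmat4 rose at 6 h with c-Fos shRNA (0.64, SE 0.17, adjusted p = 0.00921), where control shRNA gave 0.11, not called. The difference between those 2 responses was 0.53 (adjusted p = 0.349).

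Among the zinc-knuckle genes, Zcchc2 and Zcchc9 rose. Zcchc2 read 564.2 and 624.6 before KCl, 722.4 and 756.5 after 1 h, 1587.4 and 1608.5 after 3 h, and 1966.1 and 1753.1 after 6 h with control shRNA. The c-Fos shRNA arrays read 605.9 and 758.5, 855.4 and 953.5, 1874.6 and 1605.3, and 1862.2 and 1766.3. The 3 h and 6 h arrays lay above all earlier ones in both arms. The change at 6 h was 1.65 with control and 1.43 with c-Fos shRNA (SE 0.11, adjusted p = 2.22e-07 and 9.51e-07), and at 3 h 1.43 and 1.37.

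Zcchc9 was 583.6 and 606.0 before KCl, 794.8 and 907.7 after 1 h, 888.9 and 971.3 after 3 h, and 1168.5 and 1410.5 after 6 h with control shRNA. With c-Fos shRNA it was 806.8 and 865.9, 1126.6 and 1065.4, 1547.8 and 1358.6, and 1865.2 and 1699.4. Group means rose with each step of KCl time in both arms, and the c-Fos shRNA arrays were the higher ones at each time. The change at 6 h was 1.14 with control and 1.11 with c-Fos shRNA (SE 0.11). At 1 h it was 0.46 with control shRNA (adjusted p = 0.0406), and 0.37 with c-Fos shRNA was called with the replicate number as a block (adjusted p = 0.0266) but not without it (adjusted p = 0.111).

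Promoter windows of Zc3h12c, Zcchc2 and Zcchc9, which rose at least 2-fold in both arms, and of Zmat1, which fell, are given for comparison with the pair above, with the same length, source and marking. Zc3h12c lies at chr9:52168357-52168656 (minus strand, the farther upstream of its 2 windows), Zcchc2 at chr1:105990156-105990455 (plus), Zcchc9 at chr13:91807647-91807946 (minus) and Zmat1 at chrX:135009160-135009459 (minus).
Zc3h12c: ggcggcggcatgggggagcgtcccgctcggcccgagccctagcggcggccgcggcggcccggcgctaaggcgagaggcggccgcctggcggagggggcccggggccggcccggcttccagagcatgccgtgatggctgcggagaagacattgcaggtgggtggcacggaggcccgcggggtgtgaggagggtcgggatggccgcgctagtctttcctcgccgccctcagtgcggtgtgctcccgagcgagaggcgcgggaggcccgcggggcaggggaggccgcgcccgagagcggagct
Zcchc2: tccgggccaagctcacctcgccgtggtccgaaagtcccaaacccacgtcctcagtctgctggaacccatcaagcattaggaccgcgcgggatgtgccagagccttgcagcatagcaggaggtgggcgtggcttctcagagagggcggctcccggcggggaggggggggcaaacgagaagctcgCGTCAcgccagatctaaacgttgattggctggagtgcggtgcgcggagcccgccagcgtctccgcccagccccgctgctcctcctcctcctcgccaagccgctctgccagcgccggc
Zcchc9: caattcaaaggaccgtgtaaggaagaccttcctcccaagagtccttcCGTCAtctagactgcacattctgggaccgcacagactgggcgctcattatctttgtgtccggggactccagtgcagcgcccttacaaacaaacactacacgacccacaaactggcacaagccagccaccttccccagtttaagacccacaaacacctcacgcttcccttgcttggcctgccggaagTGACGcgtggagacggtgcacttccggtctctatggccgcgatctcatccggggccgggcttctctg
Zmat1: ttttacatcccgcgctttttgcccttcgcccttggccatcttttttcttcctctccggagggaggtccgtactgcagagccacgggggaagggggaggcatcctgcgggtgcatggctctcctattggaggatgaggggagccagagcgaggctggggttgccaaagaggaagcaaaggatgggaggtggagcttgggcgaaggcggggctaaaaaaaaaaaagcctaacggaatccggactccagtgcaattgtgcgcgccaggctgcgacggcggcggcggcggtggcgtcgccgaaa

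Of the 32 genes, 27 had 33 windows in the RefSeq table, of 300 bases each. TGACG, searched on both strands, was present in 18 of the 33 (54.5%), against 29.4% of the 14321 windows of tested genes and 20.8% of all 32851 windows. The median GC content was 60.7% in these windows, 60.3% in those of tested genes and 52.7% in all. Alternative windows of Zc3h13, Zc3h18 and Zcchc18 overlap each other, so a match in them is counted more than once. The full palindrome TGACGTCA, which contains TGACG on each strand, was in 1 window (3.03%), that of Zcchc17, against 2.81% and 1.79%. TGANTCA, the AP-1 element searched with any base at its centre, was in 0 of the 33 windows, against 5.21% of windows of tested genes and 7.81% of all. Of the printed windows, those of Zcchc9, Zcchc2 and Zc3h6 hold TGACG and those of Zc3h12c, Zc3h8 and Zmat1 do not. The other Zc3h12c window (chr9:52149314-52149613), which is not printed, holds it once, as does the window of Zc3h4. Counting any window of a gene, TGACG was found for Zc3h12c, Zcchc2 and Zcchc9, which rose, and for Zc3h4 and Zc3h6, which fell. It was not found for Zc3h8 and Zmat1, which fell. A link between TGACG and the KCl response was not tested.

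Zcchc4, which methylates adenosine in 28S ribosomal RNA, fell in both arms. Its intensity was 241.2 and 223.8 before KCl, 219.3 and 262.8 after 1 h, 118.5 and 115.3 after 3 h, and 116.8 and 133.6 after 6 h with control shRNA. The c-Fos shRNA arrays gave 257.7 and 278.6, 305.6 and 223.0, 138.4 and 142.8, and 146.6 and 157.8. The 3 h and 6 h arrays did not overlap the earlier ones in either arm. The change at 3 h was -0.88 and -0.82 (SE 0.15, adjusted p = 0.000602 and 0.00105), and at 6 h -0.79 and -0.71.

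Zcchc17, a nucleolar RNA-binding protein, went from 1415.9 and 1494.4 at 0 h, through 1406.7 and 1497.0 at 1 h and 1217.5 and 1268.7 at 3 h, to 1027.9 and 1153.5 at 6 h with control shRNA. With c-Fos shRNA the values were 1562.2 and 1659.8, 1554.2 and 1768.6, 1444.3 and 1469.5, and 1309.8 and 1427.3. The 6 h arrays were the lowest of each arm. The change at 6 h was -0.39 with control and -0.22 with c-Fos shRNA (SE 0.078, adjusted p = 0.00131 and 0.0369).

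Zcchc3, a cofactor of cytosolic nucleic acid sensors, was the gene called lower at 1 h with c-Fos shRNA. Its intensity there was 635.1 and 866.0 before KCl, 322.9 and 403.6 after 1 h, 558.7 and 633.5 after 3 h, and 641.4 and 696.5 after 6 h. With control shRNA it was 981.6 and 914.7, 700.9 and 870.9, 909.5 and 943.9, and 1009.7 and 1160.1. Both arms were lowest at 1 h, and the 1 h arrays did not overlap those at 0 h in either. The 1 h change was -1.03 with c-Fos shRNA (SE 0.14, adjusted p = 0.00074) and -0.35 with control shRNA (adjusted p = 0.303, or 0.0363 with the replicate number as a block). The difference between the 2 was -0.68 (95% interval for this gene alone -1.1 to -0.26, adjusted p = 0.962). On a second Zcchc3 probe set tested by itself, the 1 h change was -0.51 with control and -0.78 with c-Fos shRNA, both called.

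Zcchc12 and Zcchc18, related coactivators of bone morphogenetic protein signalling, were not called in any KCl contrast. Zcchc12 was higher on the replicate 2 array than on the replicate 1 array in all 8 groups, for example 3902.8 and 5497.2 at 0 h with control shRNA. Its 6 h change of 0.24 with control and 0.3 with c-Fos shRNA (SE 0.25) was called with the replicate number as a block (adjusted p = 0.00191 and 0.000427). Zcchc18 changed by 0.07 and 0.11 at 6 h. Zcchc10 and Zcchc24 gave 0.06 and 0.22 with control shRNA and 0.2 and 0.09 with c-Fos shRNA, none of them called.

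The next comparison, c-Fos against control shRNA at the same KCl time, asked which of these genes differed when Fos was lowered. Zc3h15 and Zcchc9 were higher with c-Fos shRNA at all 4 times and Zmat4 was lower at all 4. Of all genes, 6.48% were higher and 4.97% lower at all 4 times. At 0 h, 2 of the 28 genes were higher and 2 lower, with 12% and 10.3% of all genes called. At 1 h the counts were 2 and 4 (10.8% and 9.98%), at 3 h 3 and 4 (12.4% and 10.9%), and at 6 h 4 and 4 (13.4% and 10.4%). Averaged over the 4 times, 8 were higher and 7 lower, where 25.2% and 22.7% of all genes were called. The shares of these genes called on the average, 28.6% and 25%, were close to the background. With the replicate number as a block, 9 were higher and 11 lower, where 31.9% and 28.6% of all genes were called, the 5 added being Zc3h8 (0.19) as higher and Zc3h18 (-0.23), Zcchc14 (-0.11), Zcchc7 (-0.09) and Zcchc18 (-0.06) as lower.

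Counts at single times moved with the model and with single arrays. Under the replicate block the 0 h comparison gave 11 calls (3 higher and 8 lower, with 20.3% and 18.4% of all genes) and the 1 h comparison 13 (4 and 9, with 19.4% and 18.4%). The 7 calls at 3 h were 4 without replicate 1 of the c-Fos shRNA group. The 8 calls at 6 h were 3 without replicate 1 of the control shRNA group and 5 without either replicate of the c-Fos shRNA group.

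**Figure D3:**
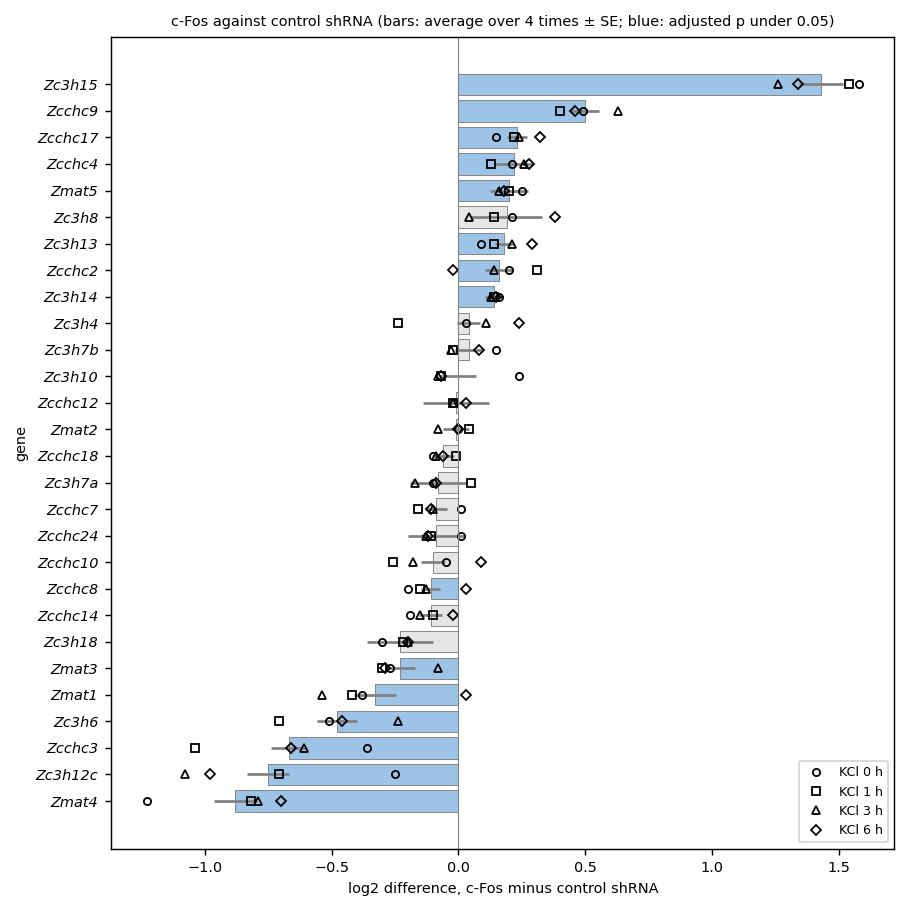
Difference between c-Fos and control shRNA for the 28 tested genes. Bars give the average log2 difference over 4 KCl times with its SE, blue where the adjusted p is under 0.05, and open symbols give the difference at each time. Zc3h15 (1.43) and Zcchc9 (0.5) are the highest bars and Zmat4 (-0.88), Zc3h12c (-0.75) and Zcchc3 (-0.67) the lowest.

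Zc3h15, which binds and stabilises the developmentally regulated GTPase Drg1, had the largest difference. Its intensity with control shRNA was 1629.3 and 1470.9 before KCl, 2027.6 and 1697.7 after 1 h, 2190.9 and 2246.6 after 3 h, and 2390.1 and 1924.5 after 6 h. With c-Fos shRNA it was 4881.2 and 4415.2, 6535.5 and 4260.2, 5005.6 and 5653.0, and 5708.0 and 5224.4. All 8 c-Fos shRNA arrays were above all 8 control shRNA arrays, already at 0 h, before KCl. The difference was 1.58, 1.54, 1.26 and 1.34 at 0, 1, 3 and 6 h (SE 0.17) and 1.43 on average (SE 0.087, adjusted p = 6e-08). Tested one by one, 2 more probe sets gave averages of 1.54 and 1.53 (adjusted p = 2.34e-07 and 4.84e-10). The remaining, dim probe set (69.0 to 249.1 over the control shRNA arrays) gave -0.29, not called.

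Whether the KCl changes of Zc3h15 were called also depended on the probe set. The representative gave 0.49 at 3 h and 0.45 at 6 h with control shRNA (adjusted p = 0.0517 and 0.0519), both called with the replicate number as a block (adjusted p = 0.00297 and 0.0037). Another probe set rose in that arm by 0.6 and 0.64 (SE 0.082, adjusted p = 0.000219 and 7.5e-05). With c-Fos shRNA neither was called, at 0.21 and 0.13 for 6 h. A further bright probe set read 1396.1 and 1175.5 at 0 h and 2143.4 and 1783.3 at 6 h with control shRNA. With c-Fos shRNA it read 4622.1 and 3950.0, and 5601.4 and 4916.8.

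Zcchc9, described above for its rise with KCl, was higher with c-Fos shRNA by 0.49, 0.4, 0.63 and 0.46 at 0, 1, 3 and 6 h. The average was 0.5 (SE 0.054, adjusted p = 9e-06). Zcchc17 was higher by 0.23 on average (SE 0.039, adjusted p = 0.000376) and called at 3 h (0.24) and 6 h (0.32). With the mean of its probe sets in place of the brightest, the average was 0.09 (adjusted p = 0.226). Zcchc4 was higher by 0.22 (SE 0.074, adjusted p = 0.0253) and called at no single time. That call was lost with the mean of its probe sets (0.12, adjusted p = 0.194). It was also lost without any 1 of 5 arrays: control shRNA 0 h replicate 2 (adjusted p = 0.0551), 1 h replicate 1 (0.0666) and 6 h replicate 1 (0.0564), and c-Fos shRNA 1 h replicate 1 (0.0509) and 6 h replicate 1 (0.0503). The other 4 genes called higher on average were Zmat5 (0.2), Zc3h13 (0.18), Zcchc2 (0.16) and Zc3h14 (0.14). Dimmer Zc3h13 probe sets had lower means with c-Fos shRNA at 0 h (606.2 against 852.1, and 375 against 574.7) and 3 h. Their means were higher at 1 h and 6 h, and their arrays spread widely (SD 311 and 254 at 0 h with control shRNA). The second Zc3h14 probe set had slightly lower means with c-Fos shRNA at all 4 times, such as 3158 against 3299 at 6 h.

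Zmat4 was the gene with the largest deficit. It read 222.4 and 255.3, 197.7 and 226.9, 190.8 and 173.7, and 277.4 and 218.1 at 0, 1, 3 and 6 h with control shRNA. The c-Fos shRNA arrays read 80.0 and 101.2, 90.7 and 125.7, 100.6 and 97.1, and 152.3 and 141.3. All 8 c-Fos shRNA arrays lay below all 8 control shRNA arrays. The difference was -1.23 before KCl and -0.82, -0.79 and -0.7 after 1, 3 and 6 h (SE 0.17), with an average of -0.88 (SE 0.085, adjusted p = 3e-06). A dimmer probe set of Zmat4 gave -0.53 on average (adjusted p = 0.0101).

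Zcchc3 was lower with c-Fos shRNA by 1.04, 0.61 and 0.66 after 1, 3 and 6 h of KCl, and -0.36 at 0 h was called with the replicate number as a block (adjusted p = 0.00777) and not without it. Its average was -0.67 (SE 0.068, adjusted p = 5e-06), and its second probe set gave -0.56. Zc3h6 was lower by 0.48 on average (SE 0.078, adjusted p = 0.000245), called at 0 h (-0.51), 1 h (-0.71) and 6 h (-0.46). Zmat1 (-0.33), Zmat3 (-0.23) and Zcchc8 (-0.11) were the other genes called lower on average besides Zc3h12c. For Zcchc8 a second, dim probe set gave a difference of -1.22 (SE 0.22, adjusted p = 0.000886).

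**Figure D4:**
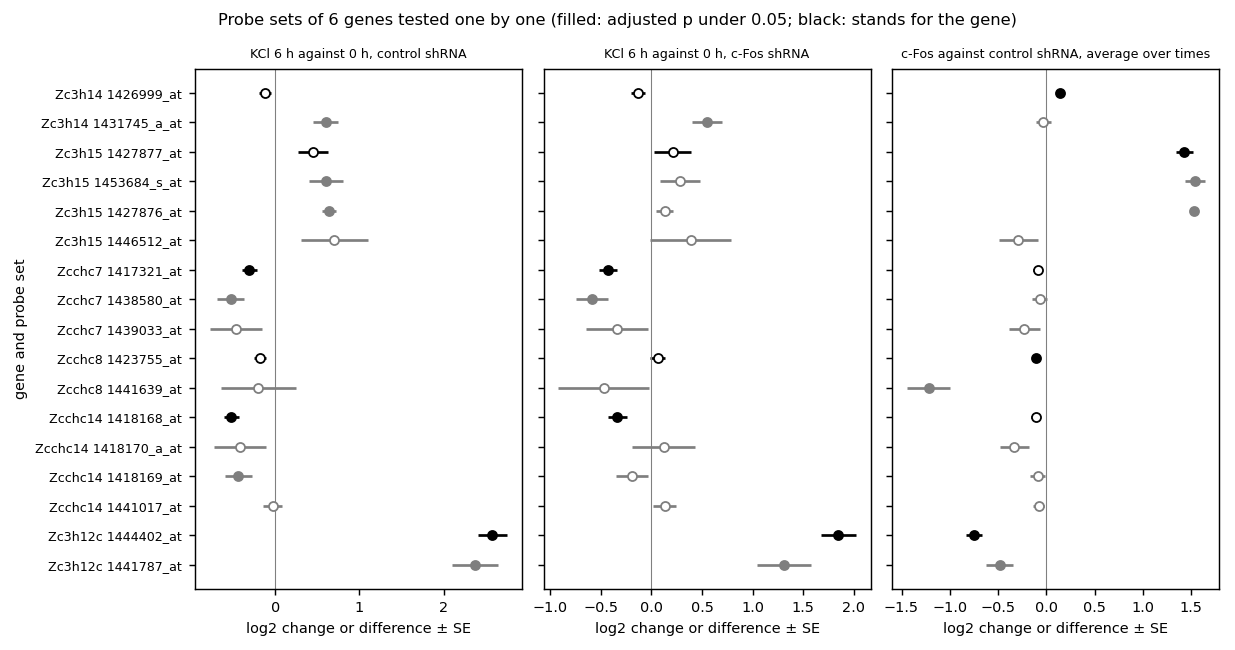
Probe sets of 6 genes tested one by one. Each row is a probe set, black where it stands for the gene and grey otherwise, plotted as log2 change or difference ± SE and filled where the adjusted p over 31526 probe sets is under 0.05. The 2 Zc3h12c probe sets lie on the same side in each panel, whereas those of Zc3h14 separate with KCl (-0.12 and 0.6 with control shRNA) and 1 of the 4 Zc3h15 probe sets does not share the shRNA difference (-0.29).

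For Zc3h12c the arms differed after KCl, and the difference before it was not called. The c-Fos minus control difference was -0.25 before KCl (adjusted p = 0.339) and -0.71, -1.08 and -0.98 after 1, 3 and 6 h (adjusted p = 0.00903, 0.000519 and 0.00112), with SE 0.17 each. The interaction, which subtracts the KCl change of the control arm from that of the c-Fos shRNA arm, was -0.46, -0.83 and -0.73 after 1, 3 and 6 h (SE 0.23). The 95% intervals of this gene alone ran from -1.34 to -0.32 at 3 h and from -1.24 to -0.22 at 6 h. Adjusted over all genes the p-values were 0.216 and 0.164, so neither was called. With the replicate number as a block they were 0.00885 and 0.00949 (SE 0.16), and both were called. On the second probe set the interaction was -0.97 at 3 h and -1.07 at 6 h, not called.

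No member was called in an interaction in limma without the block, where 0.0431%, 0.402% and 1.24% of all genes were called at 1, 3 and 6 h. At an unadjusted p under 0.05 there were 1, 1 and 3 of these genes, namely Zcchc3 at 1 h, Zc3h12c at 3 h, and Zc3h12c, Zcchc8 and Zmat4 at 6 h. The same counts over all genes were 420, 1101 and 1951. The block gave 0, 1 and 1, the last 2 being Zc3h12c, where 0.201%, 4% and 11.3% of all genes were called. For genes with large KCl changes the intervals of the difference between arms at 6 h were -0.43 to 0.53 for Zc3h6, -0.68 to 1.02 for Zc3h8, -0.11 to 0.92 for Zmat1 and -0.36 to 0.3 for Zcchc9.

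Partners of these proteins were counted in the same fit from lists chosen by function. The counts at 6 h below stand beside 16.7% of all genes called higher and 27.4% lower with control shRNA, and 16.1% and 24.9% with c-Fos shRNA. In the little elongation complex, where Zc3h8 acts, 1 of 6 tested genes was higher and 1 lower at 6 h with control shRNA. These were Ell2, an elongation factor, at 2.51 (2.2 with c-Fos shRNA), and Ice2, a core subunit, at -1.48 (-1.8). Among 13 cap-binding, export and restrictor genes, 2 were higher and 6 lower, with Srrt at 0.76, Thoc5 at -0.68 and Wdr82, the partner of Zc3h4, at -0.44. With c-Fos shRNA the counts were 3 and 6.

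For the nuclear exosome and its adaptors, 3 of 16 genes tested higher and 8 lower after 6 h of KCl in the control arm, and 4 and 6 with c-Fos shRNA. Core subunits had the largest falls, with Exosc1 at -1.29, Exosc4 at -0.94 and Exosc5 at -0.87. In the m6A writer complex, the partner of Zc3h13, 3 of 7 genes were higher and 1 lower in both arms. With control shRNA Rbm15 was at 1.33, Wtap at 0.57 and Virma at 0.37, while the catalytic subunit Mettl3 was at -1.05. Among 12 minor spliceosome and tri-snRNP genes, 3 were higher and 3 lower with control shRNA, and 5 and 2 with c-Fos shRNA. Rnpc3, a U11/U12 protein as is Zmat5, was at 0.83 and 0.97. The genes called lower were Prpf4 (-0.75), Snrnp200 (-0.63) and Ik (-0.57) with control shRNA, and Ik (-0.29) and Snrnp200 (-0.25) with c-Fos shRNA.

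Cytoplasmic decay genes, among them the partners of regnases, numbered 19. With control shRNA 0 were higher and 8 lower at 6 h, with Xrn1 at -0.46, and 2 and 2 were called with c-Fos shRNA. The difference between the arms' 6 h responses was itself called for 1 of these 19 genes, Cnot4 (0.58, adjusted p = 0.047). It was called for none in the other partner lists and for 1.24% of all genes. Of 31 tested CCCH genes that carry other names, 10 were higher and 11 lower with control shRNA, with Mbnl2 (1.6), Tiparp (1.47) and Mbnl3 (1.36) the largest rises and Toe1 (-1.15) and Dhx57 (-1.05) the largest falls. With c-Fos shRNA the counts were 10 and 5. Of 13 zinc-knuckle and nucleotidyl transferase genes with other names, 4 were higher and 3 lower with control shRNA. There Rbm4b was at 0.91 and the uridylyl transferases Tut4 and Tut7 both at -0.63. With c-Fos shRNA the counts were 2 and 3, and Rbm4b was not called. The median change of these lists at 6 h with control shRNA lay between -0.22 (exosome) and 0.35 (m6A writer), against -0.07 for all genes. Between the shRNAs, averaged over times, the CCCH genes with other names had 6 higher and 11 lower calls, led by Rc3h2 (0.51), the roquin-2 gene, and Unkl (-1.14), where 25.2% and 22.7% of all genes were called.

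Marker genes of several cell types were counted in the same fit. Of all genes, 16.7% were called higher and 27.4% lower at 6 h of KCl with control shRNA. With c-Fos shRNA these shares were 16.1% and 24.9%. At that time, 2 of the 8 neuronal markers were higher and 1 lower in each arm. Inhibitory markers were higher for 2 of 5 with control and 3 of 5 with c-Fos shRNA, and excitatory markers for 1 and 2 of 5, with none of either list lower. Of 6 astrocyte markers, 1 was lower and none higher in each arm. No oligodendrocyte-lineage (6 tested), dividing-cell (4), vascular (3) or microglial (1) marker was called in limma at 6 h in either arm, and 0 of them reached an unadjusted p under 0.05. Averaged over times, 2 of the 8 neuronal markers were higher and 4 lower with c-Fos shRNA, and 2 of the 5 excitatory markers were higher and 2 lower, against 25.2% and 22.7% of all genes. In the same comparison 1 astrocyte marker was called each way, 1 dividing-cell marker higher, and 1 inhibitory and 1 oligodendrocyte-lineage marker lower. Their part in the results above was not tested.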

How the data were processed

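Total RNA of 16 cultures was measured on single-colour Affymetrix mouse genome 430 2.0 arrays. The authors deposited 1 linear intensity per probe set and array, from 0.51 to 23935.63, after Affymetrix processing, per the labels. Which software summarised the probe sets, and to what scale, is not given in the sources used here. Medians of the arrays ran from 104.75 to 118.56, and correlations within groups from 0.9906 to 0.9939. The number of arrays limits the precision.

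From the deposited intensity, log2(intensity + 16) was quantile normalised. Probe sets naming 1 gene in the platform annotation were used (34945 of 45037 non-control probe sets, of which 34741 matched a RefSeq gene by Entrez number), the brightest standing for its gene. limma 3.58.1 in R 4.3.3 (lmFit, eBayes with trend) fitted 8 group means (16 arrays, 8 residual degrees of freedom) for all 13915 genes above log2 5.786. All adjusted p-values come from this fit or, where stated, from limma with the replicate number as a block or on single probe sets. The script was tested on simulated data.

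Replicate numbers pair the arrays. Deviations from group means of same-numbered arrays correlated at 0.36 to 0.6 (median 0.48) in all 28 pairs of groups, and the numbers come from the sample titles. The main fit holds group means only, so differences shared by same-numbered arrays stay in its residual spread. A gene not called there may therefore still have changed. For example, the 6 h change of Zcchc12 with control shRNA had an adjusted p of 0.476 in that limma fit and 0.00191 with the block.

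All 28 tested genes may be named. Full values are given for those called with at least a 2-fold KCl change in both arms, for those called in an interaction, and for the 4 largest called average shRNA differences each way. Other probe sets are given where they disagree. From each partner list at most the 3 largest called changes each way are named. The genes and lists were chosen with earlier results of these data known. Alternatives were no or median normalization, pseudocounts of 1 and 64, other filters, the mean of a gene's probe sets, no intensity trend, only the compared arrays, the replicate block and leaving out each array. The test of every probe set by itself was added after seeing the data.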

Additional observations from a re-analysis of the deposited data

Results flagged for a closer look

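The KCl response of Zc3h12c, the regnase-3 gene, differed between the shRNA arms when the replicate number was a block. The interaction, which subtracts the KCl change of the control arm from that of the c-Fos shRNA arm, was -0.83 at 3 h (SE 0.16, adjusted p = 0.00885 in limma with the block) and -0.73 at 6 h (SE 0.16, adjusted p = 0.00949). Without the block the same values had adjusted p-values of 0.216 and 0.164. On the probe set that represents the gene, both arrays at 3 h and 6 h were above those at 0 h in both arms. There, both c-Fos shRNA arrays were below both control shRNA arrays at each time. On the second probe set the order at 0 h was the reverse, at 58.8 and 64.9 in the c-Fos arm against 53.8 and 56.4 in the control arm. Its interaction, tested by itself, was not called. The block called 4% of all genes in the 3 h interaction and 11.3% in the 6 h one, against 3.57% of the 28 tested genes in each.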

How the results depend on the processing

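Direction was followed only for values already called. These were the 3 h and 6 h KCl changes of the genes with 2-fold changes in both arms. The 4 largest average shRNA differences each way were also followed. None of these values reversed its direction. Of the counts of called genes, 129 recomputed under other settings were within 1.5 times the main count and 10 were not, and 71 with an array left out were and 9 were not. With the replicate block, the count went from 2 to 5 for KCl at 1 h with c-Fos shRNA, from 4 to 11 for the shRNAs at 0 h, from 6 to 13 at 1 h, and from 0 to 1 for the interaction at 3 h and at 6 h. In the control arm, KCl at 1 h went from 2 to 1 with no filter on dim genes, with no intensity trend and with only the arrays compared. For the shRNAs at 6 h it went from 8 to 5 with the mean of a gene's probe sets and to 4 with only the arrays compared. Without single arrays these counts ranged from 1 to 1 for KCl at 1 h with control shRNA, from 9 to 12 for KCl at 6 h with c-Fos shRNA, and from 4 to 5 and 3 to 7 for the shRNAs at 3 and 6 h. The cause was not tested. Among single genes given in full, 2 values under other settings and 8 with an array left out were no longer called, all of Zc3h8, Zcchc4 or Zcchc17, and 386 and 232 kept direction and call. With 2 arrays a group and no detection calls analysed here, small differences and those of dim probe sets could not be resolved.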
